A study of Dugesia japonica with 19 samples.

Results

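Of the 5847 positions listed in any of the 18 tissue tables, 624 were listed in at least 4 of the 6 head tables and in no trunk or tail table. A site is a position on 1 strand of an assembled transcript (a contig), and these head-only sites lay on 530 of the 2882 contigs with any listed site. They were chosen by which tables list them. The other 780 of the 1404 sites listed in at least 4 head tables were also listed in at least 1 trunk or tail table, and serve as the sites set beside them. The 624 were split by the control library: 227 had 11 or more uncut control reads and 397 had fewer.

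The libraries came from the freshwater flatworm Dugesia japonica, with head, trunk and tail pieces taken at days 0, 1, 3, 5, 7 and 10. Each of the 18 libraries was made from MazF-treated poly(A)-selected RNA of pieces pooled from 10 to 20 animals. The reference was 1 library of unmodified RNA made by in vitro transcription from intact animals (IVT), and every table is a comparison with that same library. With 1 library for each tissue and day, days stand in for replicates, p-values measure only the spread between these libraries, and tissue and preparation cannot be told apart. No genotype, strain or age is given in the labels, and the contigs carry no gene names in the deposited tables, so tissue markers could not be matched and the tissue names rest on the labels.

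N6-methyladenosine (m6A) is a methyl mark that a methyltransferase complex places on adenosines of messenger RNA, where reader proteins that bind it influence splicing, translation and decay. MazF is a bacterial endoribonuclease that cuts RNA at the unmethylated trinucleotide ACA and leaves it whole when its first adenosine is methylated, so REF-seq counts reads that run uncut through a site against reads that end there. Flatworms of this genus rebuild a missing head or tail after amputation from dividing stem cells called neoblasts.

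The m6A level of a site is the uncut share of its reads in a tissue library minus the uncut share in the control. It can therefore be no higher than 1 minus the control share, and a site whose tissue reads are all uncut has exactly that level in every library. Every listed level was 0.1 or more, and every row had 11 or more uncut reads in the tissue library, in the control, or in both. A site with 11 or more uncut control reads could thus be listed from a single tissue read, whereas a site with fewer needed 11 uncut reads in the tissue library itself. A site missing from a table may have been methylated too little, read too little or not expressed, and fewer cells of a type and less RNA per cell cannot be told apart in pooled tissue.

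The split by the control separated head-only sites with different read support. The 227 sites with 11 or more uncut control reads had a median of 4 head reads (the median over a site's libraries, then over sites), with a middle range of 2 to 8. The 397 sites with fewer had a median of 24 head reads, with a middle range of 18 to 36 and a minimum of 11.5. The other recurrent head sites had medians of 12 (710 sites with 11 or more uncut control reads) and 33 (70 with fewer), so the head-only sites were less read in head than the others of their own class. A median of 10 or more head reads was reached by 47 of the 227 sites, by all 397, and by 456 of the other 780. The 11 uncut reads that the listing asks of the second class in the tissue library set its lower limit.

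The same split fixed how firmly the control side was known. The 227 sites had a median of 15 uncut among 21 control reads and a median control uncut share of 0.815. The 397 sites had a median of 5 uncut among 7 control reads and a median control uncut share of 0.667. At the other recurrent head sites the control share had a median of 0.750 over a median of 26 reads. The uncut reads pooled over head libraries had a 95% Wilson lower bound above the control's upper bound at 338 head-only sites (54.2%), made up of 69 of the 227 (30.4%) and 269 of the 397 (67.8%). Among the other recurrent head sites it was so at 419 of 710 (59.0%) and 49 of 70 (70.0%) in the same classes. These intervals cover counting error only, since reads are not independent molecules, and the comparison describes sites that were listed for being above the control.

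Most head-only sites were uncut in every head read. No head library had a cut read at 374 of the 624 (59.9%), against 442 of the other 780 (56.7%). By class it was 186 of 227 (81.9%) against 416 of 710 (58.6%) with 11 or more uncut control reads, and 188 of 397 (47.4%) against 26 of 70 (37.1%) with fewer. The mean level over head libraries had a median of 0.243 over the 624 sites, with a middle range of 0.156 to 0.401 and a full range of 0.103 to 0.9. It was 0.177 for the 227, against 0.211 for the other recurrent head sites of their class, and 0.302 for the 397, against 0.320 for the others of theirs. A mean level of 0.5 or more was reached at 17 of the 227 (7.49%) against 60 of 710 (8.45%), and at 90 of the 397 (22.7%) against 19 of 70 (27.1%). Over both classes together the order turns, with 107 of 624 (17.1%) against 79 of 780 (10.1%), since most head-only sites and few of the others are in the class with fewer control reads.

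How often a recurrent head site was head-only varied with its reads and with its control. Among sites with 11 or more uncut control reads, the head-only share was 42.8% (71 of 166) where the median head read count was under 3, and 32.2% (109 of 338) from 3 to under 10. It was 15.5% (36 of 232) from 10 to under 30, 6.87% (9 of 131) from 30 to under 100, and 2.86% (2 of 70, 95% Wilson interval 0.787% to 9.83%) at 100 or more. In this class the best-read sites were nearly all listed in trunk or tail as well. Among sites with fewer than 11 uncut control reads, 253 of 282 (89.7%), 131 of 159 (82.4%) and 13 of 26 (50%) were head-only in the upper 3 of those read ranges.

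**Figure D1:**
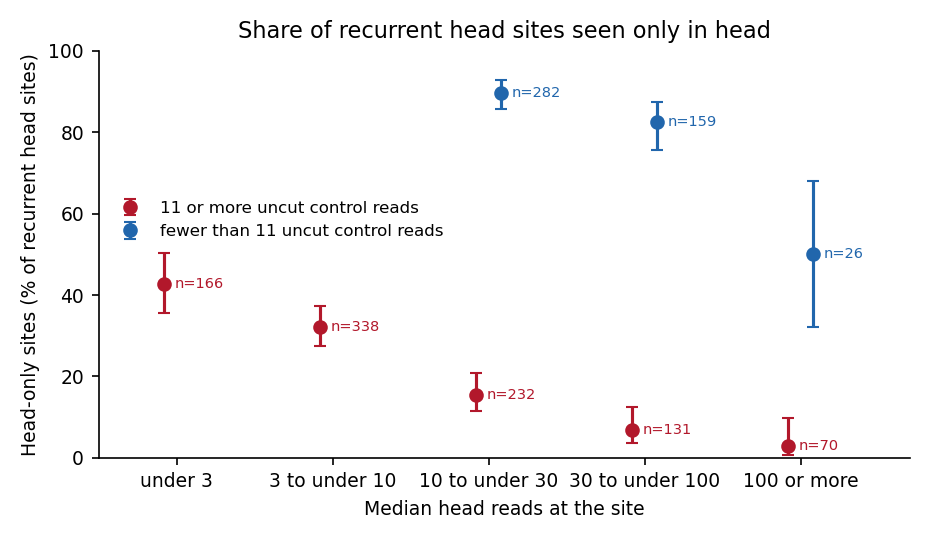
Percent of recurrent head sites that were listed only in head (vertical axis) by the site's median reads over head libraries (horizontal axis), for sites with 11 or more (red) and fewer than 11 (blue) uncut control reads; bars are 95% Wilson intervals for counting error and n is the number of recurrent head sites. The red points fall from 42.8% to 2.86% as reads increase, and the blue points, which have no sites under 10 reads, lie between 89.7% and 50%.

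Asking for the same support everywhere changed which sites with a well-read control qualified. When a row counted only with 11 or more uncut reads in the tissue library itself, 791 sites recurred in head and 614 of them (77.6%) were head-only. These held all 397 of the sites with fewer than 11 uncut control reads. This setting could not remove any of them, since the listing already asked 11 uncut reads of them in the tissue library. The 614 also held 217 of 324 recurrent sites with 11 or more (67.0%), yet only 36 of the original 227 had that many uncut reads on at least 4 head days. The rest of the 217 had been listed in trunk or tail on fewer than 11 uncut reads. They count as head-only here because those rows were dropped. These classes thus answer to different listing limits, and both are given separately below.

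The threshold of 4 tables cut through a continuous range. In exactly 4, 5 and 6 head tables there were 239, 305 and 80 head-only sites. Just outside, 260 sites were in exactly 3 head tables and 1363 in 1 or 2, with none in trunk or tail, and 163 sites in at least 4 head tables were in exactly 1 trunk or tail table, 100 in trunk and 63 in tail. Of the sites in exactly 4 tables, the best read was position 1629 on the minus strand of TRINITY_DN2158_c0_g1_i12, with a median of 73.5 reads and a level of 0.133 ± 0.0120 (SD, n = 4). Position 5135 on the minus strand of TRINITY_DN2852_c1_g1_i5 followed with 66.5 reads and 0.241 ± 0.0513 (SD, n = 4). The best-read sites in exactly 3 tables lay together on the plus strand of TRINITY_DN180_c0_g1_i11, at position 298 with 161 reads and 0.126 ± 0.0184 (SD, n = 3), and at position 293 with 99 reads and 0.123 ± 0.0189 (SD, n = 3).

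The head-only sites were listed evenly over the first 7 days and dropped out at day 10. On days 0, 1, 3, 5, 7 and 10 the tables held 558, 602, 546, 588, 552 and 115 of the 624. The 227 sites with 11 or more uncut control reads were listed 200, 216, 197, 205, 191 and 93 times on these days, and the 397 with fewer 358, 386, 349, 383, 361 and 22 times. Of the 305 sites in 5 head tables, 285 were missing at day 10, and so were 224 of the 239 in 4 tables. All of days 0, 1, 3, 5 and 7 listed 365 of the 624.

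The day 10 head library was also the shallowest of the head libraries. Total depth is unknown, so reads at 39 sites listed in all 18 libraries stand in for it. On the 6 days they summed to 70982, 186755, 139318, 291607, 132109 and 7328 in head, with medians per site of 228, 430, 278, 485, 327 and 16. In trunk the sums were 67546 to 437538 and the medians 33, 78, 166, 474, 372 and 371. In tail the sums were 5574 to 268752 and the medians 56, 22, 30, 51, 212 and 63. By the medians, head was read more than trunk and tail on days 0, 1, 3 and 5, less than trunk on days 7 and 10, and less than tail on day 10. By the sums, trunk also exceeded head on days 3 (170037) and 5 (396294), and tail also exceeded head on day 7 (268752). Median reads per listed head-only site followed the same order of libraries only loosely, at 17, 26, 16, 22, 15.5 and 2. The other recurrent head sites also dropped out at day 10, with 691, 726, 700, 734, 733 and 361 of 780 listed. The part that depth plays in the missing day was not tested.

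**Figure D2:**
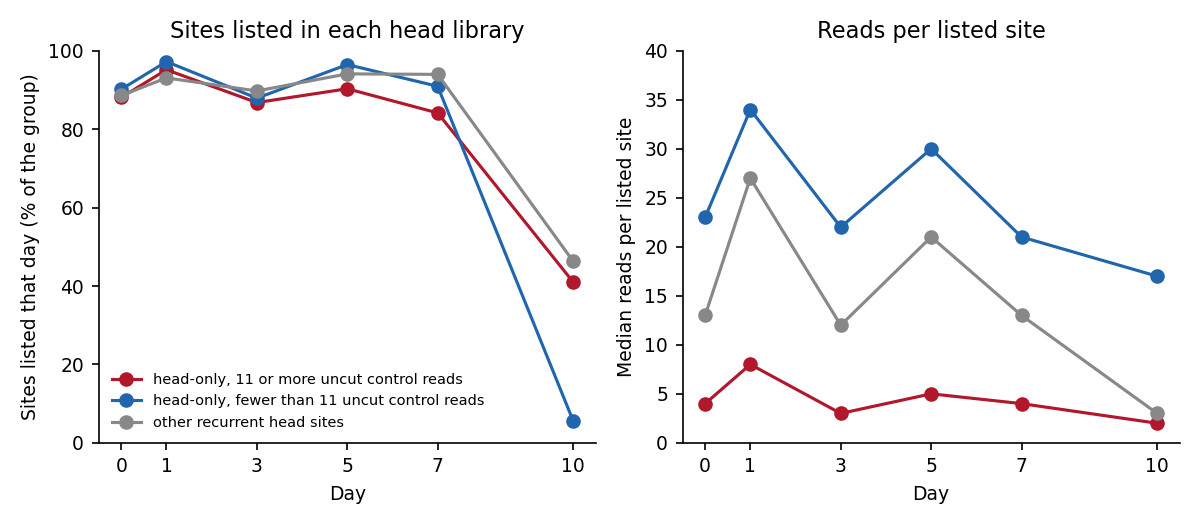
Left, percent of each group of sites listed in the head library of each day; right, median reads per listed site; horizontal axes give the day, and 1 point is 1 library, for head-only sites with 11 or more (red) and fewer than 11 (blue) uncut control reads and for the other recurrent head sites (grey). At day 10, 93 of 227, 22 of 397 and 361 of 780 sites were listed, fewer than on any other day in all 3 groups.

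Levels at the listed sites varied little between days 0 and 7, but a site with no cut read has 1 fixed level in every library, and levels under 0.1 are not listed. The median level over head-only sites was 0.250, 0.245, 0.240, 0.246, 0.250 and 0.182 on days 0, 1, 3, 5, 7 and 10, a mean of 0.235 ± 0.0265 (SD, n = 6 libraries), against 0.214 ± 0.00496 for the other recurrent head sites. Day 10 lay below the other 5 days, and 93 of its 115 listed sites were among those with 11 or more uncut control reads. The share of listed head-only sites without a cut read was 76.2%, 69.4%, 76.9%, 72.6%, 76.6% and 95.7%.

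Change of level over days was tested in head. The choice of sites did not use the order of days, but it did use the head lists, in which days with a level under 0.1 are missing. The slope of the level on day was fitted with limma at all 1404 recurrent head sites and adjusted with the Benjamini-Hochberg method over them. None of the 624 head-only sites passed an adjusted p of 0.05 in either direction, and the share called over all sites was 0% higher and 0% lower. On simulated data this test recovered few shifts, so the absence of calls does not show that levels were stable. At 374 head-only sites the levels were identical in every library, so no change could be measured there. At an unadjusted limma p of 0.05, 10 of the 624 head-only sites were higher and 7 lower over days, against 30 and 11 of all 1404. A quasi-binomial model on the reads called none after adjustment, among the head-only sites or over all sites. The largest positive slope, 0.0508 per day, was at position 319 on the plus strand of TRINITY_DN6390_c0_g1_i5 (SE 0.0310, adjusted p = 1 by limma, n = 4 libraries), a site with a median of 2.5 reads.

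The largest negative slope was at position 249 on the plus strand of TRINITY_DN1319_c1_g1_i1. Its levels were 0.768, 0.546, 0.768, 0.323 and 0.101 in 5 head libraries, on 2, 18, 3, 9 and 3 reads. The slope of -0.0867 per day (SE 0.0254) had an adjusted p of 1 in the limma fit.

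Day 0 was also set against the later days. At the 930 sites listed at day 0 and on at least 4 later days, 381 of them head-only, none of the head-only sites passed limma's adjusted p of 0.05 (over all sites 0.323% were called, all lower at day 0). With the variance prior estimated from all sites, 3 of the 381 head-only sites and 11 of all 930 were called lower at day 0. At an unadjusted limma p of 0.05, 5 of the 381 were higher and 10 lower at day 0, against 8 and 28 of all 930. The quasi-binomial model called none after adjustment, among the head-only sites or over all sites. The largest negative difference was at position 241 on the minus strand of TRINITY_DN12211_c0_g1_i1. Its level was 0.314 at day 0 on 27 reads, and 0.582, 0.612, 0.655 and 0.679 at days 1, 3, 5 and 7 on 66, 35, 28 and 21 reads. Day 0 lay below every later day at this site. Its difference from the mean of the later days was -0.318 (SE 0.0437), with an adjusted p of 0.26 in the limma fit. On simulated data the day 0 test called unchanged sites too often.

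The individual sites with 11 or more uncut control reads included 2 with a median of more than 100 head reads. Position 4854 on the plus strand of TRINITY_DN4884_c0_g1_i11 was the best read. Its uncut reads were 81 of 243, 129 of 353, 47 of 108, 81 of 176, 55 of 137 and 17 of 83 on days 0, 1, 3, 5, 7 and 10, against 41 of 597 in the control. The levels were 0.265, 0.297, 0.367, 0.392, 0.333 and 0.136, a mean of 0.298 ± 0.0916 (SD, n = 6). The site was partly cut in every head library, with the lowest level at day 10, and the control share of 0.0687 (95% Wilson interval 0.0510 to 0.0918) lay below the uncut share of every head library.

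Position 494 on the minus strand of TRINITY_DN9378_c0_g1_i1 had levels of 0.591, 0.624, 0.572, 0.624, 0.638 and 0.322 over the 6 days, on 217, 162, 96, 65, 57 and 3 reads. The mean was 0.562 ± 0.120 (SD, n = 6), with 20 of 58 control reads uncut. Days 0 to 7 lay close together and day 10, on 3 reads, lay below them. Position 164 on the minus strand of TRINITY_DN48395_c0_g1_i2 had levels of 0.595, 0.694, 0.565, 0.665, 0.565 and 0.731, a mean of 0.636 ± 0.0709 (SD, n = 6) on a median of 20 reads, against 18 of 67 control reads uncut. Its highest level, at day 10, rested on 3 reads.

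**Figure D3:**
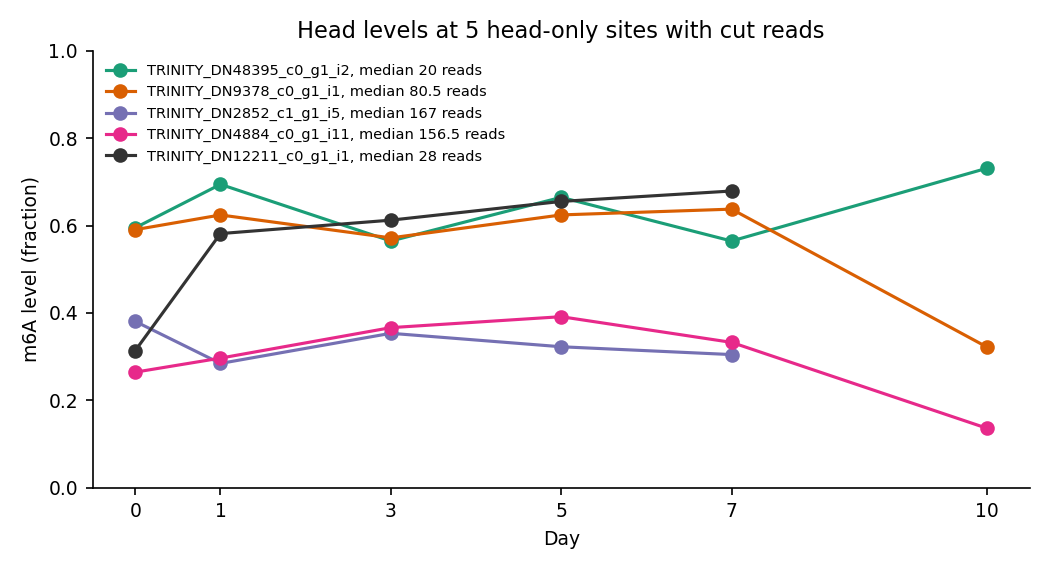
m6A level (uncut share in head minus that in the control, vertical axis) by day at 5 head-only sites that had cut reads in head, 1 line per site and 1 point per library, with the site's median head reads in the legend. The sites of TRINITY_DN9378_c0_g1_i1 and TRINITY_DN4884_c0_g1_i11 have their lowest point at day 10 (0.322 and 0.136), and the site of TRINITY_DN12211_c0_g1_i1 has its lowest at day 0 (0.314).

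Other named sites of this class sat at the level's ceiling. Position 1183 on the plus strand of TRINITY_DN101_c0_g1_i1 had the highest mean level among those with at least 10 median reads, 0.889, from 15 of 15, 19 of 19, 5 of 5 and 6 of 6 uncut reads on days 0, 1, 5 and 7 against 13 of 117 in the control. Position 216 on the minus strand of TRINITY_DN5893_c0_g1_i3 was uncut in all of 13, 30, 19, 16 and 2 reads, a level of 0.568 against 19 of 44 control reads uncut. In both, every head library was above the control's interval in uncut share, and the spread between libraries was 0 because no read was cut.

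A further 4 well-read sites had low ceilings because the control itself was mostly uncut. Position 16 on the plus strand of TRINITY_DN2849_c0_g1_i4 had a median of 141 head reads and a level of 0.139 ± 0.00573 (SD, n = 5), with 18 of 21 control reads uncut. Position 1183 on the minus strand of TRINITY_DN12065_c2_g1_i1 was uncut in all reads of 6 libraries, 13 to 109 per library, at a level of 0.267 (11 of 15 control reads uncut). Position 3293 on the minus strand of TRINITY_DN13959_c0_g1_i1 had 0.182 ± 0.00800 (SD, n = 6; control 22 of 27), and position 2515 on the minus strand of TRINITY_DN17447_c0_g1_i2 had 0.125 in all 6 libraries (control 14 of 16). The control intervals at these sites reached 0.95, 0.891, 0.918 and 0.965 uncut, close to the shares seen in head.

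Among the 397 sites with fewer than 11 uncut control reads, the highest levels came with low control shares. Position 212 on the minus strand of TRINITY_DN1716_c0_g1_i1 was uncut in 42 of 42, 90 of 90, 28 of 28, 78 of 78 and 52 of 52 reads on days 0, 1, 3, 5 and 7, against 2 of 20 in the control, a level of 0.9. Position 1444 on the plus strand of TRINITY_DN24922_c0_g1_i1 averaged 0.892 ± 0.0389 (SD, n = 5; control 1 of 11). Position 340 on the minus strand of TRINITY_DN15045_c0_g4_i1 averaged 0.883 ± 0.0333 (SD, n = 4; control 3 of 30), and position 888 on the minus strand of TRINITY_DN15410_c0_g2_i1 averaged 0.865 ± 0.0495 (SD, n = 5; control 1 of 10). At these 4 sites nearly every head read was uncut and most control reads were cut, but 10 to 30 control reads left upper control bounds of 0.301, 0.377, 0.256 and 0.404.

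Of the 4 best-read sites of this class, 3 had little room above the control. The other, position 3948 on the minus strand of TRINITY_DN2852_c1_g1_i5, had a median of 167 reads and 8 of 23 control reads uncut. Its levels are given below. Position 4246 on the plus strand of TRINITY_DN2852_c1_g1_i5 had a median of 224 reads and a level of 0.110 ± 0.00183 (SD, n = 5), with 8 of 9 control reads uncut. Position 332 on the plus strand of TRINITY_DN180_c0_g1_i11 had 180 reads and 0.124 ± 0.00262 (SD, n = 5; control 7 of 8). Position 289 on the plus strand of TRINITY_DN465_c1_g1_i4 had 180 reads, all uncut as in its other libraries, and 0.250 (control 3 of 4). With control intervals from 0.301 to 0.980 over these 3 sites, the levels depend on single control reads.

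The contig TRINITY_DN2852_c1_g1_i5, 8016 bases long, carried the most head-only sites, 7 of its 12 listed sites. On its plus strand were positions 451, 2113, 4246, 4959 and 6532, uncut in at least 0.99 of head reads on average. On its minus strand were position 3948, with a mean head uncut share of 0.677, and position 5135, with 0.441. At position 3948 the uncut reads were 51 of 70, 117 of 185, 101 of 144, 171 of 255 and 109 of 167 on days 0, 1, 3, 5 and 7, levels of 0.381, 0.285, 0.354, 0.323 and 0.305 against 8 of 23 in the control. These 2 head-only sites were partly cut in every library that listed them, and those on the plus strand had few or no cut reads.

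The same contig held 4 sites listed in trunk or tail. Position 7646 on its minus strand was listed in 1 head table at 0.723 (12 of 13 reads uncut), in 5 trunk tables at 0.8 ± 0 (SD) on a median of 26 reads, and in 2 tail tables at 0.789 ± 0.0154 (SD). Position 3724 on the minus strand was listed in 3 trunk and 3 tail tables and in no head table, at median reads of 2 in trunk and 3 in tail. Position 3772 on the minus strand was in 5 head tables and 1 tail table, uncut in all reads at a level of 0.6, and position 6375 on the plus strand in 6 head tables and 1 trunk table. RNA of this contig was therefore read in all 3 tissues.

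Another 14 contigs carried 3 head-only sites each, and 7 of them also held a trunk or tail site. The first 4 of these by name are given here, and they happen to be among the 7 that held none. On TRINITY_DN10366_c0_g1_i2 (3814 bases) they were positions 2519, 2688 and 2707, with mean levels of 0.250, 0.487 and 0.618. On TRINITY_DN11309_c0_g1_i1 (1904 bases) they were positions 1084, 1143 and 1154, at 0.2, 0.167 and 0.400, with no cut read. TRINITY_DN1227_c0_g2_i2 (2476 bases) had positions 1931, 1955 and 2001 at 0.192, 0.400 and 0.494, and TRINITY_DN13959_c0_g1_i1 (4304 bases) had positions 3293, 3403 and 3425 at 0.182, 0.153 and 0.378. On all 4 contigs the head-only sites lay close together and on both strands.

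Most contigs carried 1 head-only site (455 of 530), 60 carried 2, 14 carried 3 and 1 carried 7, and 35 had them on both strands. The 59 pairs of successive head-only sites on 1 contig and strand were a median of 65 bases apart, 40 of them within 100 bases. Such neighbours can share the same RNA fragments, so they are not independent. Strands were nearly balanced, with 316 on the plus and 308 on the minus strand (50.6% plus), against 44.4% plus for the other recurrent head sites.

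The head-only sites lay near the contig ends more often than the other recurrent head sites did. In the first or last 10% of the contig's length were 151 of 624 (24.2%), against 91 of 780 (11.7%) and 12.6% of all 5847 sites. By class it was 37 of 227 (16.3%) against 80 of 710 (11.3%) with 11 or more uncut control reads, and 114 of 397 (28.7%) against 11 of 70 (15.7%) with fewer. The difference was not tested, since sites of 1 contig are not independent.

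**Figure D4:**
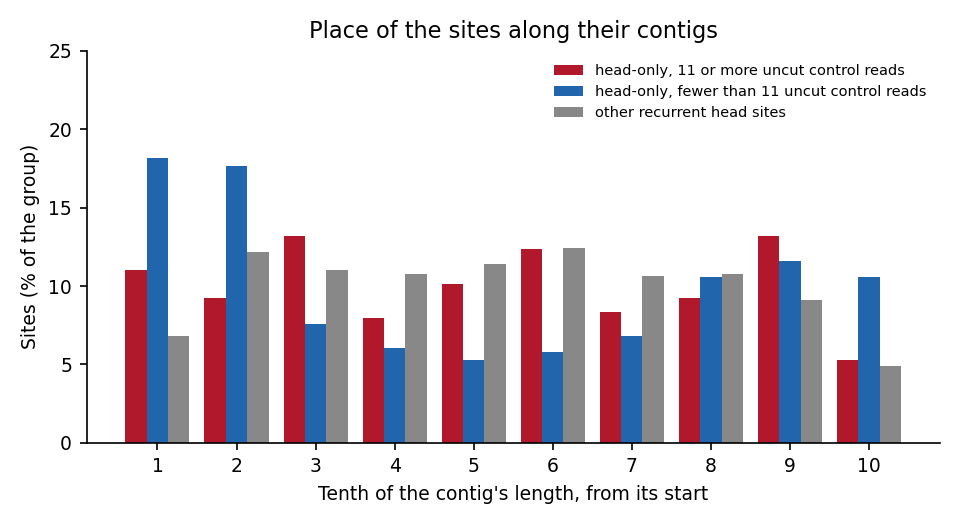
Percent of sites (vertical axis) in each of 10 equal bins of the contig's length from its start (horizontal axis), for head-only sites with 11 or more (red) and fewer than 11 (blue) uncut control reads and the other recurrent head sites (grey). The blue bars are highest in bins 1 and 2, and the blue sites have 28.7% in bins 1 and 10 together, against 16.3% for red and 11.7% for grey.

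Whether the contigs of the head-only sites were read in the other tissues was checked through their other sites. Of the 624, 217 (34.8%, 95% Wilson interval 31.1% to 38.6%) lay on a contig with another site listed in trunk or tail, against 539 of the other 780 (69.1%) and 57.4% of all sites. The share was 38.8% (88 of 227) against 68.5% (486 of 710) with 11 or more uncut control reads, and 32.5% (129 of 397) against 75.7% (53 of 70) with fewer. It was 16.6% (102 of 614), against 72.9% (129 of 177), when a row in any tissue needed 11 uncut reads in the library itself. The other site was listed in both trunk and tail for 121 of the 217, in trunk only for 37 and in tail only for 59. A site listed on at least 4 trunk or 4 tail days lay on the contig of 69 head-only sites (11.1%), against 298 of the others (38.2%). The rule does not fix these shares, but it removes any site that was itself in trunk or tail. By definition the other recurrent head sites lie on contigs read in trunk or tail, so the gap cannot be told apart from the choice of sites. Sites close to each other also share reads, so the shares are given without a test.

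Head-only sites were more often alone on their contig. The shares also differed among sites that were not alone, under the same limit from the choice of sites. The only listed site on its contig was a head-only site in 232 of 624 cases (37.2%), against 169 of 780 (21.7%) for the others. Among sites with at least 1 other listed site on the contig, 55.4% of the head-only sites and 88.2% of the others had one in trunk or tail. By contig, 180 of the 530 had a trunk or tail site, 118 had 2 or more listed sites but none in trunk or tail, and the other 232 had a single listed site. For sites that recurred only in tail, 78 of 99 (78.8%, interval 69.7% to 85.7%) lay on a contig with a site in another tissue, and for those only in trunk 10 of 17 (58.8%).

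The trunk or tail sites beside the head-only ones were often thinly read and some distance away. The nearest was a median of 161 bases off, against 85 for the other recurrent head sites, and within 100 bases for 64 of the 217. The best-read one had at least 10 reads in trunk or tail for 91 of the 217, and at least 100 for 21. For 83 of the 217 (38.2%) all such sites were on the opposite strand, against 112 of 539 (20.8%). In all, 456 trunk or tail sites lay on these contigs: 238 were also in a head table and 218 were in none, and 209 were in both trunk and tail, 86 in trunk only and 161 in tail only.

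The 4 head-only sites with 11 or more uncut control reads and the best-read trunk or tail neighbour had few reads themselves. Position 629 on the minus strand of TRINITY_DN6491_c0_g1_i4 was uncut in all of 4, 11, 9, 14 and 13 head reads on days 0, 1, 3, 5 and 7. Position 853 on the same strand had 1 and 14 reads in 2 head libraries, against 7, 30, 42, 119, 35 and 102 in the 6 trunk libraries and 2 to 19 in 5 tail libraries, all uncut. The contig held 3 head-only sites and 5 sites listed in trunk or tail. TRINITY_DN4623_c0_g3_i2 had position 3296 with 1 to 14 head reads and position 3041 with 8 reads in 1 head library, 3 to 26 in 5 trunk libraries and 1 to 13 in 4 tail libraries.

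On TRINITY_DN91434_c0_g1_i1 the head-only position 388 had 1 to 4 reads per head library. Its neighbour at position 206 had medians of 5 reads in head, 9 in trunk and 4 in tail, all uncut. TRINITY_DN143970_c2_g1_i1 carried the head-only position 325, with 3 to 14 head reads, and position 751, which was listed only in tail, at a level of 0.975 on 11 reads at day 5 and 73 at day 7, with 2 of 80 control reads uncut. All 4 contigs were thus read in another tissue at a position other than the head-only one.

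At sites listed in head and in another tissue on the same day, the reads of the tissues were compared per site as the median log2 ratio over days. Head over trunk was 2.28 at 138 sites on contigs with a head-only site, with a middle range of 0.35 to 3.63 and more reads in head at 106 (76.8%). On other contigs it was 1.24 at 820 sites, with more reads in head at 577 (70.4%). Day by day, the value on contigs with head-only sites was the higher one on days 1, 3, 5, 7 and 10 and the lower one on day 0 (1 against 2.32). Head over tail was 1.58 at 129 sites on contigs with a head-only site and 1.58 at 767 sites on other contigs. These ratios hold no correction for library depth, and sites on 1 contig share reads, so they were not tested.

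**Figure D5:**
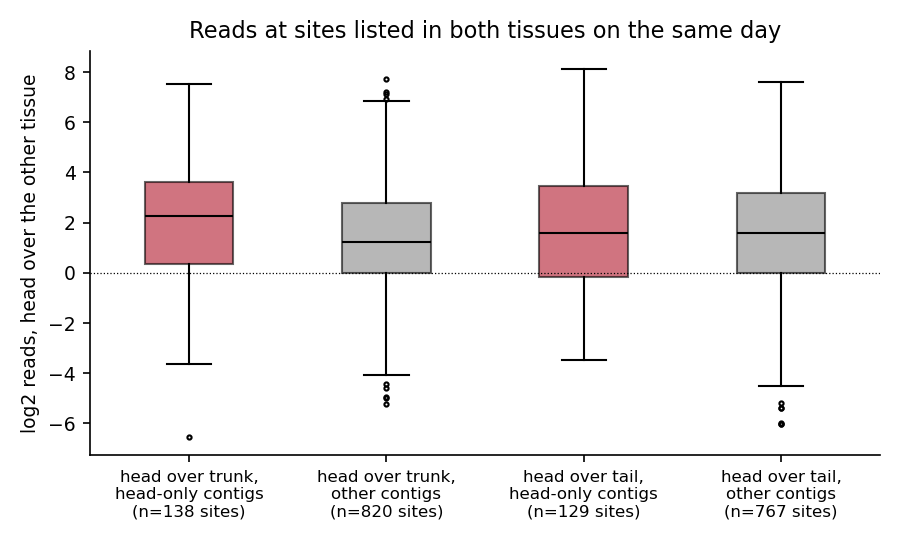
Log2 ratio of reads in head over trunk or over tail on the same day (median over days, vertical axis) at sites listed in both tissues, on contigs with a head-only site (red) and on other contigs (grey); boxes run between the quartiles with the median as a line, whiskers reach 1.5 times the box, and points lie beyond. The medians are 2.28 and 1.24 over trunk, and 1.58 and 1.58 over tail.

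Levels at these shared sites were tested between tissues with limma, with day as a block, at all sites that both tissues listed on 4 days or more. Head was lower than trunk at 2 of the 37 sites on contigs with a head-only site and higher at none. Over all 278 sites tested, 6.47% were lower in head and 0% higher, so the contigs with head-only sites lie near that background. Head was lower than tail at 5 of 26 sites on these contigs and higher at none, against 17% lower over all 176 sites tested. Both comparisons use the same head libraries. Leaving out 1 day also left fewer sites to test on these contigs, 23 to 30 for trunk and 13 to 20 for tail. The first count moved to 1 (without day 0, 1, 5 or 7) or to 5 (without day 10). The second moved to 2 (without day 0, 1 or 7) or 3 (without day 5). Over all sites tested, then 174 to 231 for trunk and 98 to 134 for tail, the first was 9 to 12, or 30 without day 10. The second was 14 to 17. Without day as a block, they were 6 of 37 (43 of 278 over all sites) and 8 of 26 (39 of 176). Of the sites on these contigs, 16 of the 37 and 9 of the 26 had identical levels in both tissues.

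The largest of these differences was at position 1951 on the minus strand of TRINITY_DN1290_c0_g1_i7. Its levels on days 0, 1, 3, 5, 7 and 10 were 0.185, 0.164, 0.157, 0.349, 0.154 and 0.217 in head, 0.436, 0.553, 0.658, 0.793, 0.741 and 0.828 in trunk, and 0.844, 0.812, 0.872, 0.868, 0.857 and 0.851 in tail. Every head library lay below every trunk and tail library. Head averaged 0.204 ± 0.0746, trunk 0.668 ± 0.151 and tail 0.850 ± 0.0217 (SD, n = 6 each), on median reads of 994, 2705 and 365.5. Head minus trunk was -0.464 (SE 0.0516, limma adjusted p = 0.0071) and head minus tail -0.646 (SE 0.0268, limma adjusted p = 6.03e-05). The head-only site of this contig was position 323 on the minus strand, uncut in all of 33 to 61 reads in 5 head libraries at a level of 0.143, with 6 of 7 control reads uncut.

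The other called differences on these contigs were smaller or rested on few reads. At position 1579 on the minus strand of TRINITY_DN1290_c0_g1_i7 head averaged 0.203 ± 0.0178 (SD, n = 5) and trunk 0.250 (n = 6, no more than 1 read cut per library), a difference of -0.0470 (SE 0.00744, limma adjusted p = 0.0339) that lost its call without any 1 of days 0, 1, 3, 5 and 7 (limma adjusted p = 0.0625 to 0.104). At position 1999 on that strand head minus tail was -0.0302 (SE 0.00700, limma adjusted p = 0.0406), a call also lost without any 1 of those days (0.0645 to 0.103). At position 376 on the minus strand of TRINITY_DN75235_c2_g1_i1 head averaged 0.336 ± 0.0466 (SD, n = 6) on 25 to 92 reads, and tail was uncut in all of 1 to 4 reads in 4 libraries (level 0.586). Its head minus tail of -0.266 (SE 0.0211, limma adjusted p = 0.00626) therefore sets well-read head values against a handful of tail reads, and the quasi-binomial model did not call it (adjusted p = 0.358).

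At position 1375 on the minus strand of TRINITY_DN6893_c0_g2_i12 head averaged 0.233 ± 0.0260 and tail 0.304 (SD, n = 6 each; no tail read cut), a difference of -0.0707 (SE 0.0101, limma adjusted p = 0.00806). Head had 277 to 934 reads per library there and tail 4 to 37. The quasi-binomial model missed the threshold at this site (adjusted p = 0.0518), and so did the limma fit on the logit scale (adjusted p = 0.165). At position 1483 on the plus strand of TRINITY_DN2158_c0_g1_i12 median reads were 600 in head and 51.5 in tail. Head averaged 0.231 ± 0.0275 and tail 0.278 (SD, n = 6 each; no tail read cut), a difference of -0.0468 (SE 0.0107, limma adjusted p = 0.0406). This call was lost without any 1 of days 0, 1, 3, 5 and 7 (limma adjusted p = 0.0628 to 0.0977). The head-only sites on the contigs of these called sites, positions 323, 240, 1177 and 1629, all had fewer than 11 uncut control reads, and the first 3 of them had no cut read in head.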

How the data were processed

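Each of the 18 tissue tables lists, per the file headers, the uncut reads and all reads of the tissue library and of the IVT control as counts, the deposited fraction of uncut reads in each, the m6A level as the difference of these fractions, and the contig length. The control's columns carry the letters fto and IVT, and were taken as the IVT library. Per the submitters' processing notes, reads went through FastQC, fastp (0.20.0) and the aligner HISAT2 (2.4.2); the counting program and the filter are not given in the sources used here, and the listing limits above were read from the values. Levels given here were recomputed from the counts, and all 23432 equalled the authors' deposited difference within 1e-09.

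Sites were joined by contig, position and strand (Python 3.11.15, pandas 2.3.3, SciPy 1.17.1). Levels were tested with limma 3.58.1 in R 4.3.3, Benjamini-Hochberg adjusted over all sites tested, calling an adjusted p under 0.05. Because levels were identical between libraries at 816 of the 1404 recurrent head sites, the variance prior was estimated from sites whose levels differed, a choice made after seeing the data; identical sites stayed in the adjustment with a p of 1. On simulated data the day trend test recovered few shifts and the day 0 test called unchanged sites too often, while the tissue fits recovered more shifts than they missed. Alternatives were a minimum of 10 reads, a logit of (uncut + 0.5) over (reads + 1), a quasi-binomial model, robust eBayes, other table counts, other splits of the control leaving out each day, and, added after seeing the data, a fit without day as a block. Day is the number that the tissues' libraries share in the labels, so the tissue fits pair them by day.

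The sites and lists were chosen with earlier results of these data known. Sites named are the best read (6 and 4) and those with the highest level (4 and 4) in each control class, the 4 with the best-read trunk or tail neighbour, the contig with the most head-only sites and the first 4 by name of 14 contigs tied after it, called sites or the largest of each sign, and the sites nearest the threshold. Each contig with a head-only site was the only listed isoform of its assembled gene, so results per gene and per contig are identical. No base sequence of the contigs was used here.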

Additional observations from a re-analysis of the deposited data

Results flagged for a closer look

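In 27 sets of head values (the 6 days of a group of sites, or the levels of 1 named site), the highest or lowest library was set against the rest by Dixon's test, and 15 stood apart. Chance flags about 5% of such sets, or 1.35 of 27, but most sets here hold repeated equal values, or share the day 10 library, so the sets are not independent.

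The day 10 head library stood apart for the head-only sites as a whole. It listed 115 of them (546 to 602 on the other days), with a median level of 0.182 (0.240 to 0.250 on the other days) and no cut read at 95.7% of listed sites (69.4% to 76.9% on the other days). For those with 11 or more uncut control reads it listed 93 (191 to 216). For those with fewer it listed 22 (349 to 386), with a median level of 0.250 (0.302 to 0.323) and no cut read at 90.9% (60.9% to 68.2%). This library also had the fewest reads at the 39 common sites among the head libraries, 7328; its part in these values was not tested.

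At single sites, 1 library had a level below the others. At position 494 of TRINITY_DN9378_c0_g1_i1 day 10 was 0.322, on 3 reads. At sites of high level, TRINITY_DN24922_c0_g1_i1 position 1444 had 0.822 at day 3 and TRINITY_DN15410_c0_g2_i1 position 888 had 0.780 at day 1. At 5 sites 1 cut read in 1 library set it apart from the others, which were equal: TRINITY_DN15045_c0_g4_i1 position 340 had 0.833 at day 1, TRINITY_DN13959_c0_g1_i1 position 3293 had 0.166 at day 3, TRINITY_DN2852_c1_g1_i5 position 4246 had 0.107 at day 5 and position 6532 had 0.490 at day 7, and TRINITY_DN180_c0_g1_i11 position 332 had 0.119 at day 3.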

How the results depend on the processing

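The number of head-only sites was 624; it was 385 with at least 5 head tables, 80 with all 6, and 405 (without day 1) to 609 without 1 head library. Those with 11 or more uncut control reads numbered 227; they were 133 with at least 5 tables, 61 with all 6, 71 with the split at 20 uncut control reads and 143 (without day 1) to 213 without 1 head library, with 150 without day 5. The share on contigs with a trunk or tail site, 34.8%, was 16.6% when a row needed 11 uncut reads in the library itself, 16.7% when it needed 10 reads, 11.1% for neighbours on at least 4 days, and 34.6% to 36.3% without 1 head library. No head-only site was called over days under any alternative, in a test that recovered few shifts on simulated data. With the variance prior from all sites, 3 of 381 were called lower at day 0 (11 of 930 over all sites). The day 0 test has no value without day 0. Sites lower in head than trunk on these contigs were 2 of 37, against 18 of 278 over all sites tested. They were 4 of 10 with at least 10 reads (25 of 86 over all sites) and 5 of 37 in the quasi-binomial model (24 of 278). Without 1 day they were 1 to 5 of 23 to 30 sites tested, and 9 to 30 of 174 to 231 over all sites. On the logit scale 12 were higher and 8 lower (66 and 50 over all sites), where the logit of an uncut site grows with its reads by construction. Sites lower in head than tail were 5 of 26, against 30 of 176 over all sites. They were 3 in the quasi-binomial model and 3 with the variance prior from all sites (19 over all sites in each). With at least 3 days they were 3 of 39 (22 of 287 over all sites). Without 1 day they were 2 to 5 of 13 to 20 sites tested, and 14 to 30 of 98 to 134 over all sites. On the logit scale 4 were higher and 4 lower (21 and 23 over all sites). No call reversed direction at any named site; calls of single named sites on the contigs were lost 24 times over all alternatives, most often at positions 1579, 1999 and 1483. The cause of these changes was not tested. The tissue fits pair the libraries by day. With no replicate block, 6 sites were lower in head than trunk (43 over all sites) and 8 lower than tail (39). No named call was lost there. The day tests use 1 tissue and have no pairing. Precision is low on the head side for the sites with 11 or more uncut control reads (median of 4 head reads) and on the control side for the rest (median of 7 control reads).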
